A study of Rattus norvegicus with 10 samples.

Results

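The keratins of stratified and simple epithelium were described on 10 Affymetrix RAE230A arrays of rat penile tissue, each read by the probe sets whose platform annotation names that keratin as its only gene. Of the 7 keratins in question, 6 were measured, each by 1 probe set, so 6 of the 10411 genes named singly on the array, and 6 of its 15866 probe sets, were members. Krt5, Krt14 and Krt15 stood for stratified epithelium, and Krt8, Krt18 and Krt19 for simple epithelium. Krt17, a stratified keratin induced in wounded and appendage epithelium, had no probe set naming it alone and was not analysed here. The members were named for their textbook class, with earlier results of these arrays known.

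The arrays held total RNA of cavernosal tissue, the erectile tissue of the penis, from F344 rats, an inbred strain. The 5 control samples were set against 5 from rats with 10 weeks of diabetes, which had been induced with streptozotocin, a compound that destroys the insulin-producing cells of the pancreas. The labels give no age, no treatment of the controls and no pooling, and do not say that each sample was a separate animal, so a p-value measures the spread between these samples, which may be technical. Arrays are numbered 1 to 5 in each group by accession order, and the numbers carry no pairing.

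Keratins are the intermediate filament proteins of epithelial cells. A filament is built from a type I and a type II chain in equal amounts, so keratins are expressed as partners. Krt5, of type II, and Krt14, of type I, are the partners of the basal layer of stratified epithelium such as epidermis, and Krt15 is a further type I keratin of basal cells and of the hair follicle bulge. Krt8, of type II, and Krt18, of type I, are the partners of simple, ductal and glandular epithelium. Krt19, of type I, is expressed in ducts and many simple epithelia and also in some basal and follicle cells. The penis holds stratified epithelium in its skin and urethra and gland epithelium beside it, while the erectile tissue itself is made mainly of smooth muscle, endothelium and connective tissue.

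Array medians lay between intensities of 116.8 and 131.4, and precision is limited by having 5 arrays a group. The 5 smooth muscle markers listed for the tissue check summed to 4003 to 6147 in control and 5686 to 7763 in diabetic arrays, and none was at 0. The 5 skeletal muscle markers on the array summed to 35780 to 46656 in control and 23812 to 38043 in diabetic arrays, and the 5 fibroblast markers to 21834 to 32366 and 10762 to 17532. Of these 15 markers, limma called 0, and the skeletal muscle and fibroblast markers stood lower in diabetic arrays for all 10. Endothelial, adipocyte, mesothelial and blood markers also had 0 calls. The part of these cell types in the keratin values was not tested.

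All 6 keratins averaged higher in diabetic than in control tissue, by 1.11 to 1.97 on the log2 scale, and none passed the test, with limma adjusted p between 0.230 and 0.368 over all 9683 probe sets tested. The values of the groups overlapped for all 6, but the share of all tested probe sets with such overlap was not counted, so this sets the keratins apart in no way. Across the table limma called 0.423% of probe sets (41 of 9683) at an adjusted p under 0.05. At an unadjusted p under 0.05, 3 of the 6 keratins stood higher, against 10.1% of all tested probe sets. The median change of the 6 keratins was 1.63 against 0.047 for all probe sets tested, and 6 of 6 exceeded 1, as did 1.82% of the table. In bulk tissue, fewer cells of a type and less RNA per cell cannot be told apart, so these values do not say which differed. All 6 entered the test. A probe set entered the test if 5 of the 10 arrays exceeded an intensity of 85.9, and Krt5, Krt15, Krt8, Krt18 and Krt19 exceeded it in all 5 diabetic arrays, so they would have entered through that group alone. Krt14 exceeded it in 4 diabetic and 2 control arrays. The counts and the median over the 6 are therefore descriptions.

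**Figure D1:**
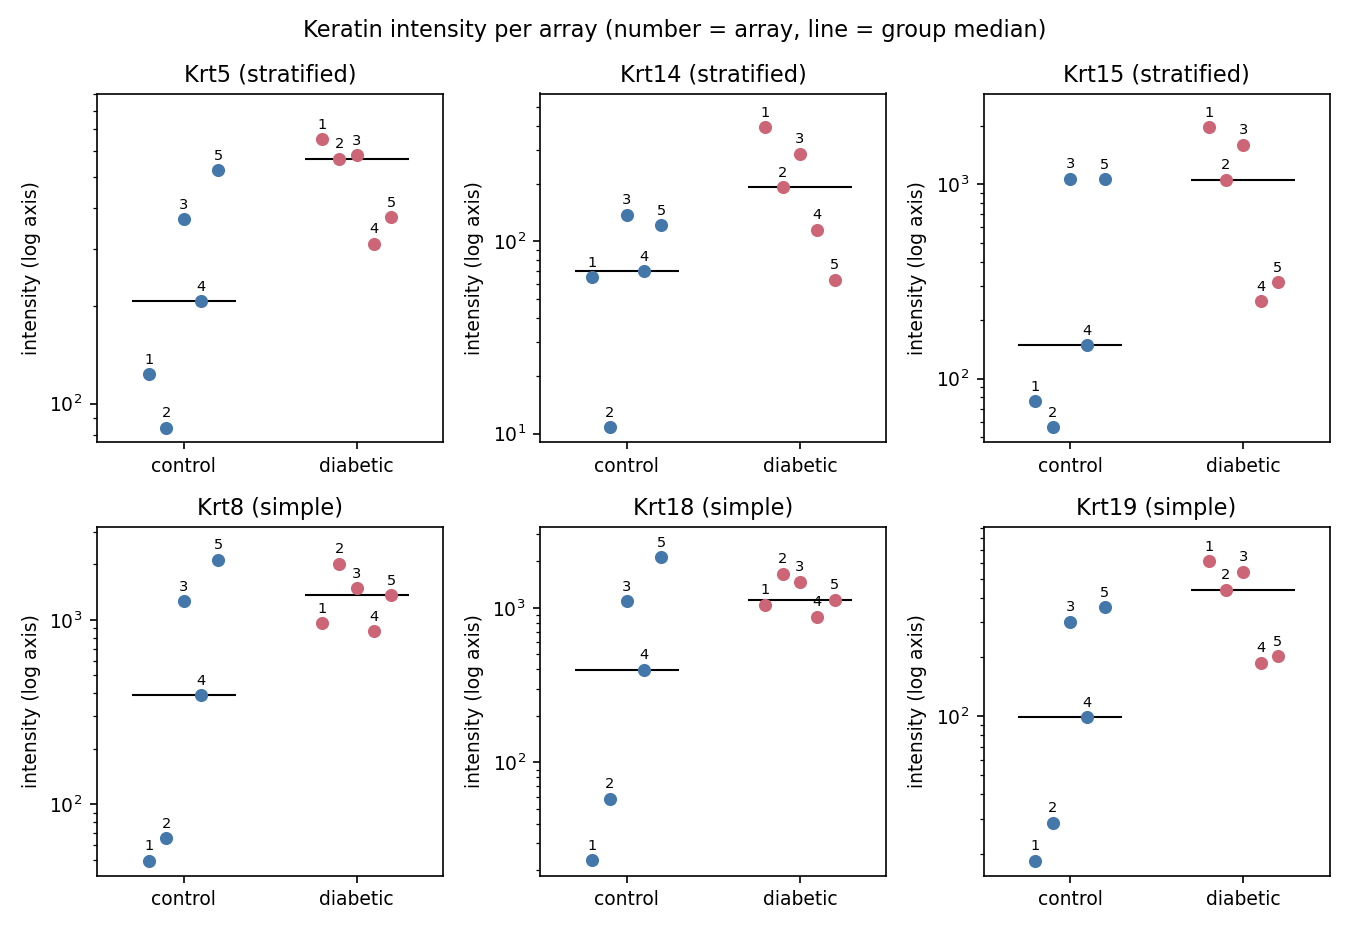
Intensity of each of the 6 keratins (log axis) on the 5 control and 5 diabetic arrays; each point is an array with its number, and lines are group medians. Controls 1 and 2 lie at the bottom for Krt5, Krt15, Krt8, Krt18 and Krt19, while diabetic arrays 4 and 5 lie lowest of their group for Krt15 (249.9 and 312.8), where for Krt8 the lowest are 4 and 1 (868.1 and 961.8).

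Krt5, the basal type II keratin, read 123.0, 84.2, 369.8, 207.0 and 523.4 in controls 1 to 5, and 651.9, 568.5, 582.1, 310.5 and 375.6 in diabetic arrays 1 to 5. Controls 1, 2 and 4 lay below every diabetic array, and diabetic 1, 2 and 3 above every control, while the rest overlapped. Group means were 261.5 ± 183 and 497.7 ± 147 (SD, n = 5 each), and the change on the log2 scale was 1.11 ± 0.42 (SE; adjusted p = 0.230 by limma).

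Krt14, its type I partner, read 65.2, 10.8, 137.9, 69.8 and 121.0 in the controls and 392.9, 191.4, 286.1, 115.0 and 63.2 in the diabetic arrays. Control 2 alone lay below all diabetic arrays, and diabetic 1, 2 and 3 lay above all controls. Its change was 1.22 ± 0.53 (SE; adjusted p = 0.271).

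Krt15, the other type I keratin of basal cells, read 76.2, 56.2, 1068, 148.2 and 1064 in the controls and 1962, 1056, 1595, 249.9 and 312.8 in the diabetic arrays. It had a high and a low set of arrays in each group: controls 3 and 5 lay beside diabetic 2, and diabetic 4 and 5 lay nearer to control 4. The change of 1.57 ± 0.89 (SE; adjusted p = 0.368) had the highest adjusted p of the 6. Among the diabetic arrays Krt15 spanned 7.85-fold, with an SD of 1.33 on the log2 scale, and 3 of the 9683 tested probe sets had a larger SD in that group. The median SD over all tested probe sets was 0.18 in diabetic and 0.27 in control arrays.

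Krt8, the type II keratin of simple epithelium, read 49.5, 65.5, 1268, 390.0 and 2117 in the controls and 961.8, 2015, 1490, 868.1 and 1364 in the diabetic arrays. Controls 1, 2 and 4 lay below every diabetic array, but control 5 lay above every one of them. The control arrays spanned 42.8-fold and the diabetic arrays 2.32-fold, and the change was 1.85 ± 0.89 (SE; adjusted p = 0.308).

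Krt18, the partner of Krt8, followed it closely, with 23.2, 58.3, 1106, 397.1 and 2130 in the controls and 1051, 1660, 1477, 874.4 and 1129 in the diabetic arrays. Its control range, 91.8-fold, was the widest of the 6 keratins, while its diabetic range, 1.90-fold, was the narrowest. The change was 1.97 ± 0.96 (SE; adjusted p = 0.310). The SD of the control arrays, 2.48 on the log2 scale, was exceeded by 22 of the 9683 tested probe sets.

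Krt19 read 18.4, 28.7, 301.0, 98.3 and 358.4 in the controls and 613.3, 439.0, 541.3, 186.5 and 201.8 in the diabetic arrays. As for Krt5, controls 1, 2 and 4 lay below every diabetic array and diabetic 1, 2 and 3 above every control. Its change was 1.68 ± 0.67 (SE; adjusted p = 0.247).

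An exact permutation test of each keratin over all assignments of the arrays, two-sided and unadjusted, gave p from 0.0556 for Krt5 to 0.175 for Krt15. The smallest p it can give is 0.00794. Leaving out controls 1 and 2, whose epithelial signal was the lowest in earlier results of these data, brought the 6 changes to between 0.29 and 0.66 (limma adjusted p between 0.796 and 0.930). Without controls 1, 2 and 4, Krt15, Krt8 and Krt18 stood at -0.46, -0.35 and -0.35, and Krt5, Krt14 and Krt19 at 0.12, 0.41 and 0.11. Controls 1, 2 and 4 were the lowest controls for all 6 keratins, so leaving them out was bound to lower every change. These fits therefore describe how far the changes rest on those arrays and are no test. Without control 5, the array with the most Krt8 and Krt18, Krt5 passed at 1.41 (limma adjusted p = 0.0372) in a fit that called 1068 probe sets. Control 5 was also the highest control for Krt5, so leaving it out was bound to raise that change, and this pass is no test either. With arrays weighted by their fit, all 6 passed, at 1.62 to 3.09 (limma adjusted p between 0.00722 and 0.0325), in a fit that called 2813 probe sets. The direction of all 6 keratins was the same after quantile normalization and median centring of the arrays. Within scan days 1, 2 and 3, the days that held both groups, the diabetic minus control difference was above 0 for each keratin. Krt5 stood at 1.09, 1.58 and 0.86 on these days, Krt15 at 1.76, 3.59 and 0.080, and Krt8 at 2.44, 1.27 and 1.77. Day 1 held 2 controls and 1 diabetic array, day 2 held 1 of each and day 3 held 2 of each. Control 1 was scanned on day 1, control 4 on day 2 and control 2 on day 3. Each of these days thus held 1 of the lowest controls, so these differences rest on the same arrays and add no separate evidence. Within fluidics stations 1 and 2 Krt5 stood at 1.33 and 1.09, Krt15 at 1.85 and 2.15, and Krt8 at 2.55 and 1.51. Diabetic 2 was the only array of its group on station 1, and control 4, a low control, the only one of its group on station 2. Station thus largely coincided with group, and each station difference hangs on a single array, so these values add no separate evidence.

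**Figure D2:**
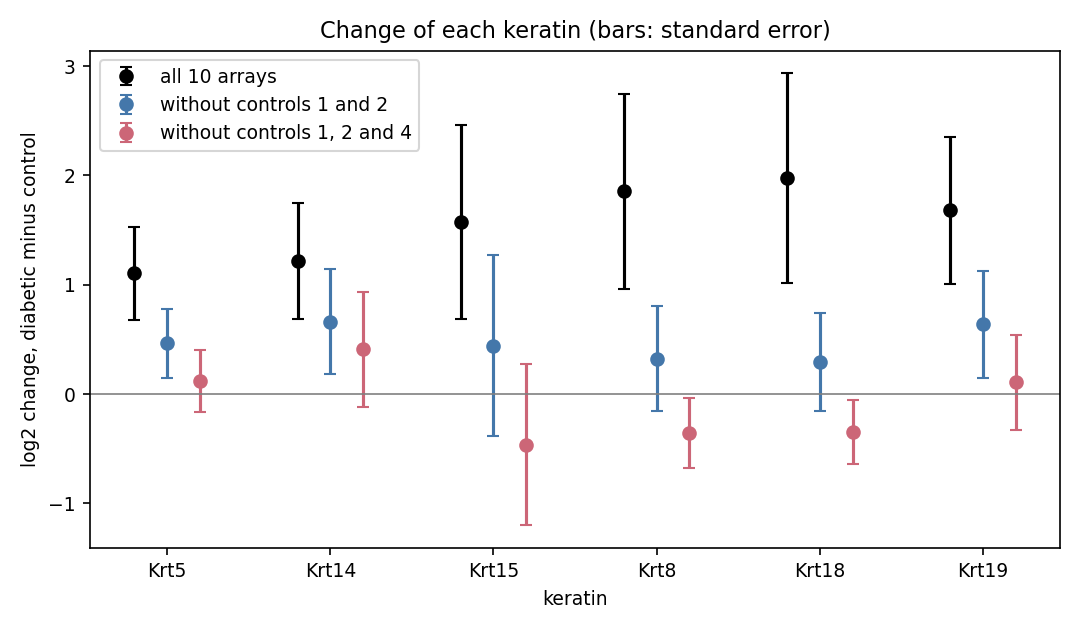
Log2 change (diabetic minus control) of each keratin with its limma standard error, over all 10 arrays and with controls 1 and 2, or 1, 2 and 4, left out. All 6 points are above 0 with all arrays (1.11 to 1.97), and those of Krt15, Krt8 and Krt18 are below 0 without controls 1, 2 and 4. The arrays left out were the lowest controls for all 6 keratins, so a lower change was bound to follow.

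To set the classes side by side without comparing the brightness of different probe sets, each keratin was expressed as the deviation of its log2(intensity + 16) from its own median over the 10 arrays, and deviations were averaged within a class. The stratified mean stood at -1.63, -2.44, 0.35, -1.10 and 0.46 in controls 1 to 5 and at 1.38, 0.69, 1.08, -0.48 and -0.53 in diabetic 1 to 5. The simple mean stood at -3.94, -3.41, 0.17, -1.36 and 0.80 in the controls and at 0.34, 0.76, 0.65, -0.34 and 0.032 in the diabetic arrays. Both classes were thus lowest in controls 1 and 2, next lowest in control 4, and near or above their medians in controls 3 and 5.

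Among controls the simple mean had the larger SD, 2.10 against 1.26 for the stratified, and among diabetic arrays the stratified mean had the larger SD, 0.89 against 0.45 (n = 5 each). The stratified minus simple difference was highest in control 1 (2.31), diabetic 1 (1.03) and control 2 (0.97), and lowest in diabetic 5 (-0.57) and control 5 (-0.35). Over the groups the diabetic minus control change averaged 1.30 for the stratified and 1.84 for the simple keratins. The difference between the classes was -0.54. Its SD between single arrays within a group was 0.85, which is not the error of a difference of group means. It rested on control 1, without which it was -0.13, and it turned to 0.11 without controls 1 and 2 and to 0.22 without controls 1, 2 and 4. Controls 1 and 2 had the highest stratified minus simple values of the controls, so leaving them out was bound to move the difference upward. The class means are descriptions and carry no test.

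**Figure D3:**
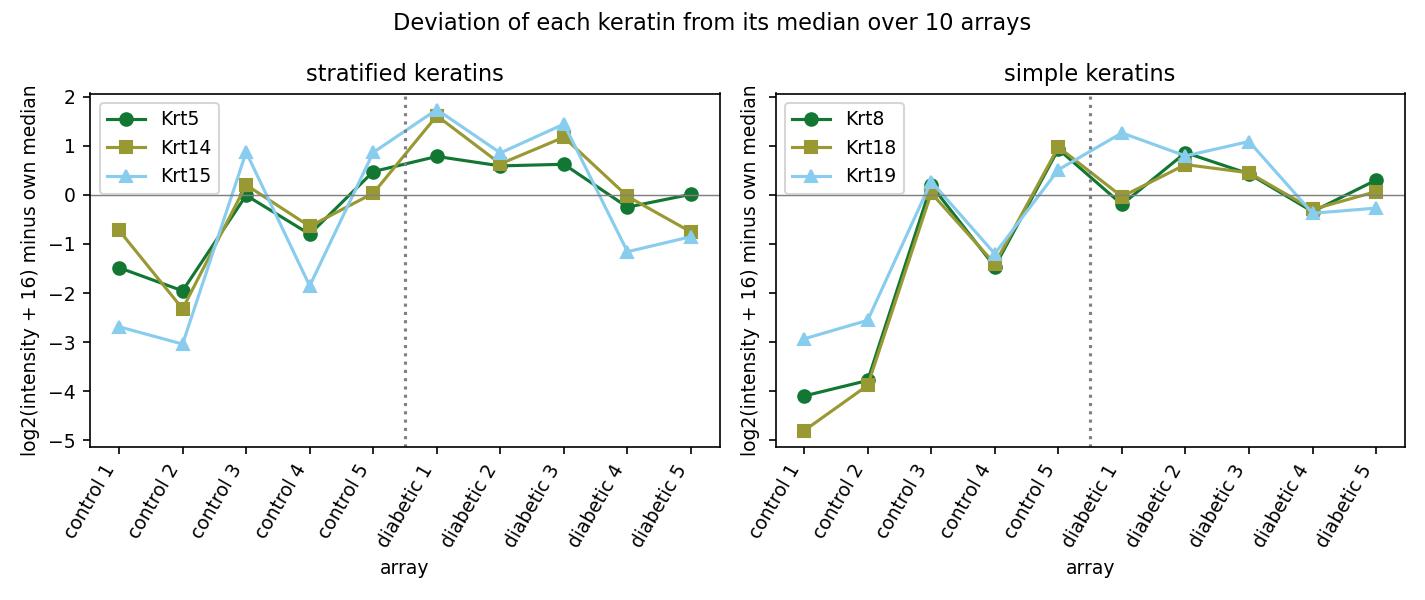
Deviation of each keratin from its own median over the 10 arrays, on the log2(intensity + 16) scale, with stratified keratins on the left and simple keratins on the right. Krt8 and Krt18 run together, from between -4.80 and -3.78 in controls 1 and 2 to between -0.34 and 0.86 in the diabetic arrays, while Krt15, Krt14 and Krt19 peak in diabetic 1 (1.74, 1.61 and 1.26).

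**Figure D4:**
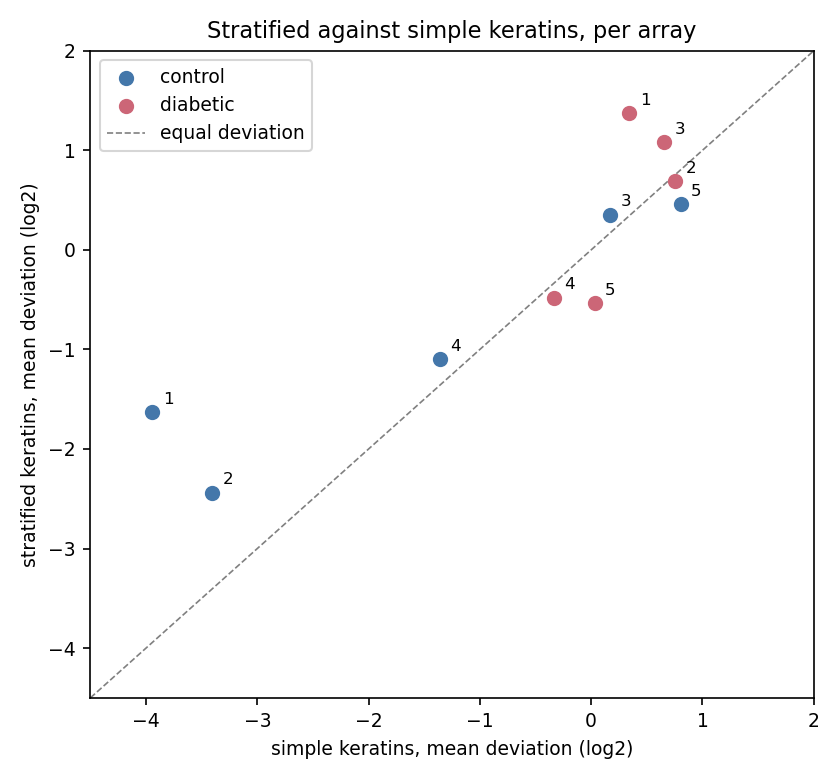
Mean deviation (log2) of the simple keratins (x axis) and of the stratified keratins (y axis) for each array; the dashed line marks equal deviation. Controls 1 and 2 lie far left and above the line (simple -3.94 and -3.41, stratified -1.63 and -2.44), and diabetic arrays span -0.53 to 1.38 along the y axis and -0.34 to 0.76 along the x axis.

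The profiles of single keratins were then compared in all 15 pairs by the mean absolute gap between their deviations. Krt8 and Krt18 had the smallest gap, 0.18 on the log2 scale, with the largest single difference, 0.71, in control 1. The basal partners Krt5 and Krt14 had a gap of 0.43, with the largest difference, 0.83, in diabetic 1. The 3 gaps within the stratified class ran from 0.43 to 0.84 with a median of 0.72, and the 3 within the simple class from 0.18 to 0.66 with a median of 0.59. Between classes the widest gaps were those of Krt14 to Krt18 (1.10) and to Krt8 (1.07).

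Krt19, placed with the simple keratins, lay nearer to the stratified ones over the 10 arrays. Its gap was 0.43 to Krt5, 0.46 to Krt15 and 0.50 to Krt14, against 0.59 to Krt8 and 0.66 to Krt18. Like Krt15 and Krt14, it was highest in diabetic 1 and 3, whereas among the diabetic arrays Krt8 and Krt18 were highest in diabetic 2. The gap to the 3 stratified keratins minus that to Krt8 and Krt18 was -0.16 over the 10 arrays, averaging -0.15 over the controls and -0.18 over the diabetic arrays. Single arrays carried most of it, with -0.94 in diabetic 1 and -0.84 in control 2, while 4 of the 10 arrays lay above 0. Without control 2 the order over the other 9 arrays turned, with 0.54 to the stratified keratins and 0.52 to Krt8 and Krt18. Without control 1 or diabetic 4 or 5 the difference was -0.029, -0.077 or -0.021. With a pseudocount of 1 it was -0.047, and without controls 1 and 2 it was -0.054, and in neither case was every stratified keratin nearer than Krt8 and Krt18. When medians were taken over the control arrays alone the averages were equal at 0.62, and over the diabetic arrays alone they were 0.34 and 0.64. The side on which Krt19 lay was thus not settled by these arrays.

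**Figure D5:**
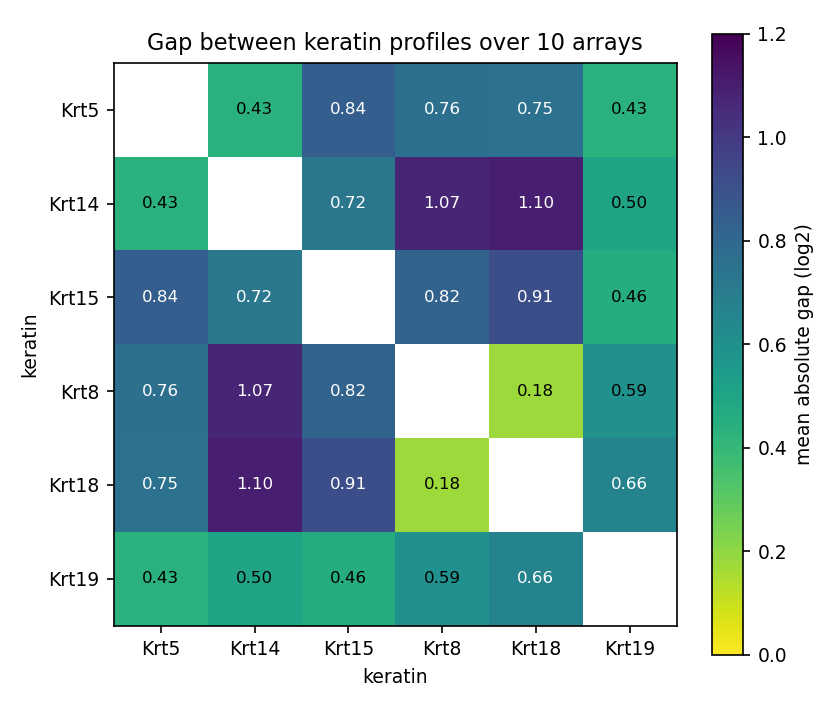
Mean absolute gap (log2) between the deviations of each pair of keratins over the 10 arrays, from 0.18 for Krt8 with Krt18 to 1.10 for Krt14 with Krt18. The row of Krt19 holds smaller gaps to Krt5, Krt15 and Krt14 (0.43 to 0.50) than to Krt8 and Krt18 (0.59 and 0.66).

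The members lie in the 2 keratin gene clusters of the rat. In the RefSeq gene table of GRCr8, Krt8 and Krt18, the pair with the smallest gap, are neighbours on chromosome 7 with 0 protein-coding genes between them, at the end of the type II cluster that also holds Krt5. Krt15 and Krt19 are neighbours on chromosome 10 with 0 protein-coding genes between them, in the type I cluster that also holds Krt14 and Krt17. Krt18 is the type I keratin that lies in the type II cluster.

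Upstream sequence from the RefSeq promoter table is shown for the adjacent Krt8 and Krt18, whose array profiles were the closest, and for Krt5, whose profile differed from theirs. Each is written 5′ to 3′ on the gene's strand. Krt18 lies on the plus strand at chr7:135035918-135036167 and Krt5 on the minus strand at chr7:134730570-134730819, both from 250 bases before the annotated start to 1 base before it. Krt8 lies on the minus strand at chr7:135010390-135010589, from 250 to 51 bases before an annotated start at which the letters ATG stand. Capitals mark matches, on either strand, to the letters TATAAA of the TATA-box motif, GGGCGG of the GC box, TGANTCA of the AP-1 motif, GCCNNNGGC of the AP-2 motif, and the CCAAT motif.
Krt8: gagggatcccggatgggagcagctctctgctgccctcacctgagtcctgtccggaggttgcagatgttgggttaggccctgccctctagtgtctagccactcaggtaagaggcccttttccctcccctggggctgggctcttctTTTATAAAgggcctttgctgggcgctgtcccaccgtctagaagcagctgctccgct
Krt18: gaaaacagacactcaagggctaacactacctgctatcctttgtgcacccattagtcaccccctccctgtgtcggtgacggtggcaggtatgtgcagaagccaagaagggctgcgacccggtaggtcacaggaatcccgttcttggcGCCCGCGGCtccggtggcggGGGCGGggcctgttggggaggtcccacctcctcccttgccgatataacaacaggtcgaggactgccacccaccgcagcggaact
Krt5: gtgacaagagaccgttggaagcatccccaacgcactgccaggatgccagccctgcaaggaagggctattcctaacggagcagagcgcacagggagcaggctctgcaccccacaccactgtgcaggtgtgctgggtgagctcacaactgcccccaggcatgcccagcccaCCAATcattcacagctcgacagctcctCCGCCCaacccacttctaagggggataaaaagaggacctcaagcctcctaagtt

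The Krt8 window holds a TATA box 104 to 99 bases before the annotated start, in overlap with a match on the other strand, and 12.9% of all 33469 promoter windows of 250 bases hold one. The Krt18 window holds a GC box 84 to 79 bases before the start and an AP-2 match 104 to 96 bases before it, found in 30.5% and 12.6% of windows. The Krt5 window holds a GC box 54 to 49 bases before the start, on the other strand, and a CCAAT match 81 to 77 bases before it, found in 34.0% of windows. The AP-1 letters, found in 6.34% of windows, occur in none of the 3. The windows of Krt8 and Krt18 thus share none of these motifs, but they are unlike regions. That of Krt8 has 200 bases and ends 51 bases before an ATG, and that of Krt18 has 250 and ends 1 base before its annotated start. Such matches describe the letters alone.

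Genes other than the 6 members whose deviations came nearest to each class were found by the same gap over the 10 arrays, among 7137 tested genes, whose median gap was 1.01 to the stratified and 1.19 to the simple mean. Nearest to the stratified mean was S100a14, a calcium-binding protein of epithelial cells, with a gap of 0.11. It read 40.5, 9.3, 173.3, 53.7 and 176.7 in the controls and 395.0, 230.8, 343.2, 97.6 and 116.9 in the diabetic arrays. Its low values in diabetic 4 and 5, like those of the stratified mean, follow from its being picked by the gap. C13h1orf116 (0.28), the keratin Krt7 (0.32), the adhesion molecule Alcam (0.37) and the tight junction protein Ocln (0.39) came next. Nearest to the simple mean was Cdh1, E-cadherin of epithelial adherens junctions, with a gap of 0.15. It read 3.3, 17.6, 326.9, 98.8 and 476.3 in the controls and 431.0, 688.7, 553.0, 228.3 and 256.6 in the diabetic arrays. Ccl28, a chemokine of mucosal and gland epithelium (0.21), the claudin Cldn7 (0.22), the epithelial transcription factor Ehf (0.23) and the claudin Cldn3 (0.23) came next. None of these 10 genes passed the test between the groups, and since they were picked for profiles like those of the keratins, this adds no separate evidence. Their adjusted p lay between 0.195 for Alcam and 0.304 for Ocln.

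The array held 12 further probe sets naming 1 other keratin alone, for 10 genes, of which 3 passed the intensity filter and 0 the test. Krt4, a keratin of the upper layers of moist stratified epithelium, read 57.1, 75.2, 506.0, 82.1 and 407.7 in the controls and 842.0, 423.4, 619.4, 108.7 and 124.4 in the diabetic arrays (0.97 ± 0.71, SE; adjusted p = 0.474). As for Krt15, diabetic 4 and 5 lay far below diabetic 1 and 3. Krt7, a type II keratin of ducts and glands, stood at 1.46 ± 0.60 (SE; adjusted p = 0.255). Krt6c, a type II keratin of the group induced in stressed and appendage epithelium, rested on 3 probe sets. By the one that was tested it read 42.6 to 93.9 in the controls and 77.1 to 174.9 in the diabetic arrays (0.65 ± 0.21, SE; adjusted p = 0.181). The other probe sets, with diabetic minus control differences of 0.91 and 0.25 on the log2 scale, did not enter the test. Near-identical copies of the gene make its reading uncertain. Krt1 and Krt10, the partners of the suprabasal epidermis, did not pass the filter. Krt1 read 144.6 in control 1 and 48.8 to 133.2 elsewhere. Krt10 read 198.9 in control 1 and 18.6 to 37.1 in the other 9 arrays. Krt5 and Krt15 were low in control 1 (123.0 and 76.2). Krt14 was less so, at 65.2 there against 69.8 in control 4 and 63.2 in diabetic 5.

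Other epithelial genes, from lists chosen with earlier results known, lay on the same side as the keratins, and limma called 0 genes of any of them. Of 14 tested genes of desmosomes, hemidesmosomes and adherens junctions, 13 stood higher, with a median of 0.42 against 0.047 for all tested probe sets. Dsp, desmoplakin, which anchors keratin filaments at desmosomes, stood at 1.40 ± 0.55 (SE; adjusted p = 0.237), and Itgb4, the integrin that links basal keratin to the basement membrane, at 0.81 ± 0.33 (adjusted p = 0.247). Of 12 genes of tight junctions and the apical surface all 12 stood higher, with a median of 1.38, among them Cldn4 (1.84 ± 0.73, adjusted p = 0.242). Of 7 epithelial transcription factors all 7 stood higher, with a median of 0.61. These included Ehf (2.08 ± 0.83, adjusted p = 0.246) and Klf5, a factor of basal and gut epithelium (0.61 ± 0.26, adjusted p = 0.261). Of 5 cornified envelope and suprabasal genes 4 stood higher, with a median of 0.46. Lgals7, a galectin of stratified epithelium, read 195.4 in control 1 and 7.4, 153.7, 12.5 and 136.9 in the other controls, so unlike Krt8 it was not low in control 1. Only genes that passed the intensity filter were counted in these lists and in those below. Cldn4 and Ehf exceeded the filter intensity in every diabetic array but not in every control, so they would have entered through the diabetic group alone. Such entry favours higher values in diabetic arrays. The share of all tested probe sets above 0 was not counted, so the list counts are descriptions.

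Secretory gland products stood higher for 8 of 9 tested genes with a median of 0.26, and 0 were called. Pigr stood at 2.42 ± 1.09 (SE, limma adjusted p = 0.283) and Pip at 2.65 ± 1.26 (adjusted p = 0.303), both above every keratin. Tff3 stood at 0.23 ± 0.14 (adjusted p = 0.387) and Aqp5 at 1.85 ± 1.18 (adjusted p = 0.414). Aqp5, the water channel of gland acini, read 8.3, 16.4, 1319, 315.3 and 2411 in the controls and 547.4, 1220, 907.4, 615.6 and 1229 in the diabetic arrays. Its array order in the controls was that of Krt8, with control 5 highest and controls 1 and 2 lowest. Among the diabetic arrays the order differed, with Aqp5 lowest in diabetic 1 and highest in 5, and Krt8 lowest in 4 and highest in 2. The 6 markers of simple and glandular epithelium summed to 161.6 to 9054 in the controls and 4149 to 8797 in the diabetic arrays, and the 5 basal and stratified markers on the array to 533.1 to 3116 and 1901 to 4480. None was at 0, and the lowest values were 7.2 for Cldn4 and 4.9 for Tp63, both in control arrays. How far the amount of skin, urethral or gland epithelium in each sample accounts for the keratin values was not tested.

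Of 9 tested intermediate filament genes of other cells, 3 stood higher, the median was -0.12, and 0 were called. Des, the muscle filament desmin, read 3301 to 6232 in the controls and 3592 to 5324 in the diabetic arrays (-0.19 ± 0.18, SE; adjusted p = 0.584), and Synm, its partner synemin, stood at -0.34 ± 0.17 (adjusted p = 0.324). Of 10 tested genes that bind or regulate keratins 6 stood higher, with a median of 0.15 and 0 called. One of them, the 14-3-3 protein Ywhah, stood at 0.28 ± 0.11 (adjusted p = 0.252).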

How the data were processed

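The authors deposited 1 linear intensity per probe set and array. On each array the mean without the lowest and highest 2% of values was near 250.1, so arrays had been scaled to a common target. No source used here names the software, and no detection calls were used. Per the file headers, the arrays came from 1 chip lot, 4 scan days and 2 fluidics stations. Day 1 held controls 1 and 5 and diabetic 2, day 2 control 4 and diabetic 1, day 3 controls 2 and 3 and diabetic 4 and 5, and day 4 diabetic 3. Controls 1, 2, 3 and 5 and diabetic 2 ran on station 1, and the rest on station 2.

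From 15923 rows, 57 control probe sets were removed. Of the rest, 12783 named 1 gene, 312 several and 2771 none, and 12748 symbols were matched by Entrez identifier to RefSeq (GRCr8). Tests used log2(intensity + 16) after raising values under 1 to 1, which understates changes of dim probe sets. Probe sets above the 40th percentile of the table (85.9) on at least 5 arrays were tested with limma 3.58.1 in R 4.3.3 (lmFit, eBayes with trend), two-sided, Benjamini-Hochberg adjusted over all 9683, threshold 0.05. The fit was tested on simulated data. Each keratin has 1 probe set. Members, gene lists and alternatives were chosen with earlier results of these data known. Named genes are all members, up to 4 per list by unadjusted p, and the 5 genes nearest to each class. Krt1 and Krt10 were named after their values were seen. Alternatives covered scaling, pseudocounts of 1 and 64, filters, blocks, variance moderation, array weights and arrays left out. Figures used matplotlib 3.10.9.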

Additional observations from a re-analysis of the deposited data

Results flagged for a closer look

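In groups of 5 arrays, a keratin array was looked at again when its distance to the nearest other array exceeded 0.71 of the group's range. In 42 such groups, among them those of the 6 keratins, the class means and the 12 other keratin probe sets, 5 arrays stood out. Chance gives about 1 in 20 groups, but these groups are not independent, since the class means are made from the keratins. None of the 5 was a value of the 6 keratins or of a class mean. For Krt10 they were control 1, at 198.9, and diabetic 1, at 18.6. For Krt6c they were control 5 at 104.2 by one probe set and diabetic 5 at 6.8 by another. For Krt79 it was diabetic 2, at 32.1. All 5 values belong to probe sets that did not pass the intensity filter.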

How the results depend on the processing

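No keratin was called in the main comparison. With array weights 6 were called, in a fit that called 2813 probe sets (Krt5 1.62, Krt14 1.70, Krt15 2.57, Krt8 2.93, Krt18 3.09 and Krt19 2.44), and with single arrays left out the count ran from 0 to 1 (Krt5, without control 5). Of all probe sets, 41 were called, against 22 with a pseudocount of 1, 26 without a filter, 0 with scan day as a block, 0 with station as a block, 0 without controls 1 and 2, and 21 without controls 1, 2 and 4. With the 0 counts, limma had 1119, 1483 and 773 at an unadjusted p under 0.05. With single arrays left out the count ran from 0 to 1068: 0, 1, 24, 8 and 1068 without controls 1 to 5, and 2, 0, 0, 13 and 6 without diabetic 1 to 5. The 3 fits with 0 had 1126, 1163 and 1303 at the unadjusted p. Median centring turned the calls from 21 higher and 20 lower to 13 and 30.

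Without controls 1, 2 and 4 the mean change was 0.022 for the stratified and -0.20 for the simple keratins, and Krt15 (-0.46), Krt8 (-0.35) and Krt18 (-0.35) lay below 0. The stratified minus simple change, -0.54, ran from -0.79 to -0.13 with single arrays left out, and was 0.11 without controls 1 and 2 and 0.22 without controls 1, 2 and 4. The cause was not tested. The gap of Krt19 to the stratified keratins minus that to Krt8 and Krt18, with alternatives chosen after seeing the data, was -0.16 on all arrays, 0.0011 on control arrays alone, -0.047 with a pseudocount of 1, and -0.25 to 0.022 with single arrays left out. The other alternatives run kept the direction of each keratin's change. Krt14 fell under the filter at the 60th percentile, so the class means were not computed there. Averaging probe sets of a gene was not run, since each keratin has 1. Krt14, Krt18 and Krt19 were dim in controls 1 and 2, where the pseudocount limits the change.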
